A study of Mus musculus with 6 samples.

Results

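The BCL2 family of cell death regulators was examined through 10 genes in mouse CD8+ T cells, namely the BH3-only genes Bbc3, Pmaip1, Bcl2l11, Bad and Bid, the anti-apoptotic genes Bcl2, Bcl2l1 and Mcl1, and the effector genes Bax and Bak1. The members were chosen by symbol from the 78275 genes of the count table, and all 10 were among the 16105 genes with enough counts to be compared. Bbc3 led to the choice through its difference between the groups of mice, and the other members were added as its family with results of the same comparison known. The difference between the groups is therefore given for the members as a description, without p-values.

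RNA was measured by sequencing in CD4-CD8+ TCRβhigh T cells sorted from 3 wild-type (WT) and 3 BIT mice. Each mouse gave 1 library. Both groups were on the C57BL/6 background and are labelled as male and 9 to 10 weeks old. WT mice were the unmodified controls. BIT mice carried, on both copies of Psmb8, an allele with the sequence of Psmb11 inserted into Psmb8, so that the thymoproteasome subunit β5t is made where the immunoproteasome subunit β5i is normally made. The allele is present in the germline of BIT mice and not limited to T cells, so the sorted cells had also developed in a thymus that carried it. The labels give lymph nodes as the source and name spleens as well in the protocol. The paper gives lymph nodes for this RNA sequencing, and names spleens beside them for its separate TCR sequencing. The study bred several BIT lines and used a single one, in which Psmb11 took the place of just the first coding exon, where it says nothing else. No group received a treatment. The comparison addresses how the transcriptome of CD8+ T cells that matured with this allele differs from that of WT cells.

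In mitochondrial apoptosis, proteins of 3 classes meet at the outer mitochondrial membrane. BH3-only proteins are induced or activated by stress or by loss of survival signals, anti-apoptotic proteins bind and hold them, and the effectors BAX and BAK, once free and active, open the membrane and release cytochrome c, which starts the caspases. In T cells, BIM, encoded by Bcl2l11, and PUMA, encoded by Bbc3, are known for the removal of self-reactive thymocytes and of T cells short of cytokine, whereas BCL2 and MCL1 keep naive and memory T cells alive.

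The feature that gives the BH3-only class its name is the BH3 segment, a short helix with which these proteins dock into a groove of the anti-apoptotic members. Its core can be written as leucine, 3 residues of any kind, glycine, alanine or serine, and aspartate. The translated canonical transcripts of 9 members each held this core exactly 1 time. That of Pmaip1 held it 2 times, and its sequence is not printed here. The coding DNA around it is shown because it is what the 3 classes share, and because it was not used to choose the members. Each run is 30 bases on the coding strand, 5′ to 3′, from the GRCm39 genome through the Gencode M39 transcripts, and the capitals mark the bases that encode the 6 residues of the core. The first 4 are BH3-only genes, the next 3 are anti-apoptotic and the last pair are the effectors.
Bbc3: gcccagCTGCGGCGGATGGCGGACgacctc
Bcl2l11: caggagCTGCGGCGGATCGGAGACgagttc
Bad: cgtgagCTCCGAAGGATGAGCGATgagttt
Bid: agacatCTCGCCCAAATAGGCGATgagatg
Bcl2: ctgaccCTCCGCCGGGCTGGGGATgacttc
Bcl2l1: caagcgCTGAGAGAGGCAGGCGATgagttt
Mcl1: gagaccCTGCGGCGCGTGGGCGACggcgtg
Bax: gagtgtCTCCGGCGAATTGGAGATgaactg
Bak1: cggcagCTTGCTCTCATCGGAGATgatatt

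The printed run of 30 bases lay within 1 coding exon in all 9 genes, and the positions given are those of the whole run. In Bbc3 the run was in exon 3 of 4 at chr7:16047692-16047721 on the plus strand, and its core began at residue 141 of 193. In Bcl2l11 it was in exon 3 of 4 at chr2:127989064-127989093 (plus), in Bad in exon 2 of 3 at chr19:6928154-6928183 (plus), and in Bid in exon 4 of 6 at chr6:120874253-120874282 (minus). In the anti-apoptotic genes it was in exon 1 of 2 of Bcl2 at chr1:106640308-106640337 (minus), in exon 2 of 3 of Bcl2l1 at chr2:152671620-152671649 (minus), and in exon 1 of 3 of Mcl1 at chr3:95566741-95566770 (plus). In the effectors it was in exon 3 of 6 of Bax at chr7:45115424-45115453 (minus) and in exon 4 of 6 of Bak1 at chr17:27241508-27241537 (minus). Over the capital bases, Bcl2l11 shared 15 with Bbc3, Mcl1 shared 14, Bax 12, Bad and Bcl2 11 each, and Bid, Bcl2l1 and Bak1 8 each. By shared bases the order did not follow the classes, since the anti-apoptotic Mcl1 came before the BH3-only Bad and Bid. Bases can differ without a change of residue, so this count does not rank the likeness of the encoded cores. The same core was encoded at least 1 time by 34.0% of 21770 canonical coding transcripts, so that a match alone does not mark a BH3 segment.

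Before the members are compared, the libraries themselves are described. They held between 37467678 and 52922675 estimated counts, and the members' counts ranged from 235 to 21011. Psmb8 was at 201 to 205 CPM (the count scaled to 1000000 counts of the library) in WT and at 1.40 to 1.63 CPM in BIT, and Psmb11 had 0 counts in every WT library and 32.7 to 43.0 CPM in BIT, so the genotypes of the labels held in all 6 libraries. A count of 0 allows a level of up to 0.0567 to 0.0801 CPM, depending on the library, for counting error only. The summed CPM of 5 CD8+ T cell markers was between 3572 and 3923 in all 6 libraries, whereas that of 4 CD4+ T cell markers was at most 5.68. The library of WT replicate 3 stood apart. It held 66626 counts of Xist, the RNA of an inactive X chromosome, and 0 counts of Uty, Kdm5d, Eif2s3y and Ddx3y, which lie on the Y chromosome, although all mice are labelled as male. Its 4 NK cell markers summed to 63.5 CPM, nearly all from Gzma, against 4.67 to 9.69 CPM in the other libraries, while Ncr1, the defining NK marker, was at 0.275 CPM there. On principal component 1, which held 34.4% of the variance, replicate 3 of both groups lay on one side (54.6 for WT and 28.6 for BIT) and the other 4 libraries on the other (-36.5 to -3.31). Fitted fold changes of the members are therefore given below with and without WT replicate 3. The part of these differences between libraries in the results was not tested.

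Among the BH3-only genes, Bbc3 had the widest gap between the groups. Bbc3 encodes PUMA, which binds all anti-apoptotic members and can also activate BAX and BAK, and lies at chr7:16042318-16052130 on the plus strand of GRCm39. It had 1247, 951 and 589 counts in the WT libraries, or 23.6, 18.8 and 14.8 CPM, and 1946, 2028 and 1750 counts in the BIT libraries, or 43.5, 48.2 and 46.7 CPM. The groups did not overlap, and the lowest BIT mouse was 1.85 times the highest WT mouse. The 3 BIT mice lay within 1.11-fold of each other and the 3 WT mice within 1.60-fold, with WT replicate 3 the lowest. The mean was 19.0 ± 4.41 CPM in WT and 46.1 ± 2.42 CPM in BIT (SD, n = 3 each), a ratio of 2.42, which was 2.18 without WT replicate 3. After quantile normalization, limma-voom fitted a log2 fold change of 1.27 ± 0.16 (SE). On leaving out 1 mouse at a time this value ranged from 1.08, without WT replicate 3, to 1.44, without WT replicate 1.

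Pmaip1, which encodes NOXA, a BH3-only protein that binds mainly MCL1, had few counts. There were 278, 263 and 348 in WT (5.25, 5.20 and 8.71 CPM) and 384, 393 and 383 in BIT (8.58, 9.34 and 10.2 CPM). The groups overlapped by a small margin, because WT replicate 3 was above BIT replicate 1, and the other WT mice were below all BIT mice. The ratio of the means was 1.47 and rose to 1.79 without WT replicate 3. The fitted log2 fold change was 0.63 ± 0.16 (SE), and 0.79 without that library.

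Bcl2l11 encodes BIM, the BH3-only protein most linked to T cell deletion. It had 2663, 2003 and 2199 counts in WT (50.3, 39.6 and 55.1 CPM) and 2708, 2892 and 2992 in BIT (60.5, 68.8 and 79.9 CPM). All BIT mice were above all WT mice, but the lowest BIT mouse was at 1.10 times the highest WT mouse, a gap smaller than the 1.39-fold spread within WT. The mean was 48.3 ± 7.91 CPM in WT and 69.7 ± 9.71 CPM in BIT (SD, n = 3 each), and the fitted log2 fold change was 0.49 ± 0.11 (SE), or 0.56 without WT replicate 3.

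For Bad and Bid the WT and BIT mice overlapped. Bad, whose protein is held inactive by phosphorylation under survival signals, was at 6.92, 6.80 and 7.56 CPM in WT and at 5.70, 5.59 and 7.66 CPM in BIT. BIT replicate 3 was the highest of the 6 mice and the other BIT mice were the lowest, so that the groups overlapped. The fitted log2 fold change of Bad was -0.13 ± 0.14 (SE), or -0.17 without WT replicate 3. Bid, which caspase-8 cleaves to link death receptors to mitochondria, was at 15.3, 14.99 and 10.9 CPM in WT and at 13.1, 13.5 and 15.6 CPM in BIT. WT replicate 3 was the lowest mouse for Bid, and the fitted log2 fold change of 0.05 ± 0.18 (SE) was -0.15 without it.

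**Figure D1:**
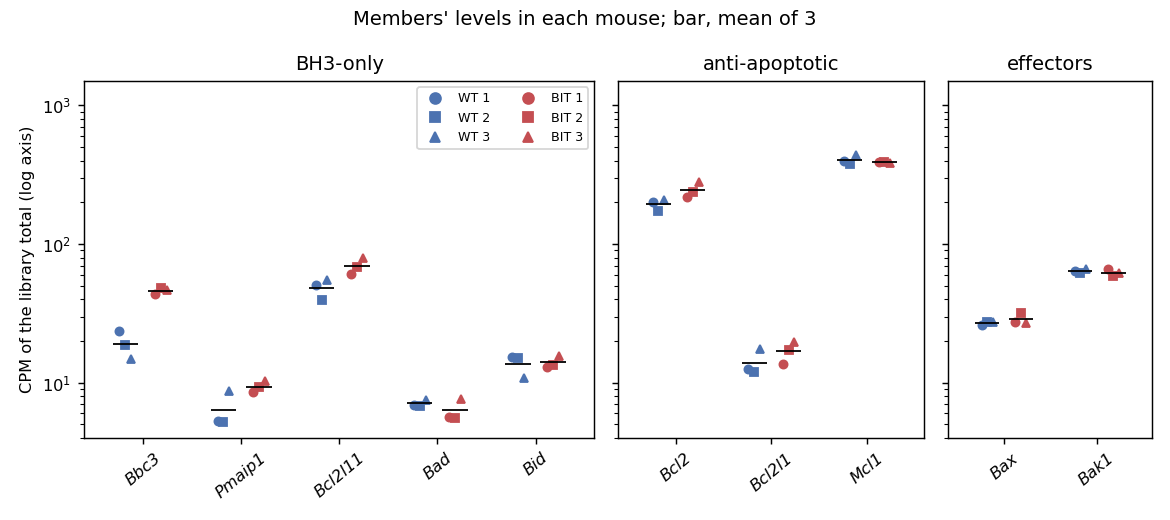
CPM of the library total, on a log axis, of each member in each of the 6 mice, with WT in blue, BIT in red, a marker shape for each replicate number and a bar at the mean of 3. The BIT points of Bbc3, at 43.5 to 48.2 CPM, sit above its WT points, at 14.8 to 23.6 CPM, whereas the points of Bax, Bak1 and Mcl1 overlap.

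Among the anti-apoptotic genes, Bcl2 was the member with BIT mice above WT mice. Its protein is the founding guardian of the family and supports the survival of naive T cells downstream of IL-7. Bcl2 had 10575, 8755 and 8301 counts in WT and 9785, 9987 and 10549 in BIT. Scaled to the library totals these were 199.8, 173.1 and 207.8 CPM in WT and 218.6, 237.4 and 281.5 CPM in BIT. The groups did not overlap, with the lowest BIT mouse at 1.05 times the highest WT mouse. The raw counts of the groups do overlap, through WT replicate 1, the largest library, while the counts of the other WT mice lie below those of every BIT mouse. The fitted log2 fold change was 0.28 ± 0.09 (SE), or 0.30 without WT replicate 3. Over all mice left out in turn it was between 0.20 without BIT replicate 3 and 0.34 without BIT replicate 1.

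Bcl2l1, which encodes BCL-XL, a guardian best known in double-positive thymocytes and activated T cells, was at 12.6, 12.04 and 17.4 CPM in WT and at 13.7, 17.2 and 19.7 CPM in BIT. WT replicate 3 was above 2 of the 3 BIT mice. The fitted log2 fold change of 0.29 ± 0.15 (SE) was 0.40 without WT replicate 3. Mcl1, whose protein is short-lived and degraded by the proteasome, was at 397.0, 375.8 and 438.8 CPM in WT and at 392.1, 388.3 and 385.3 CPM in BIT. The BIT mice lay inside the WT range, within 1.02-fold of each other. The fitted log2 fold change of Mcl1 was -0.11 ± 0.08 (SE), or -0.07 without WT replicate 3.

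The effectors showed small differences relative to their spread. Bax was at 26.2, 27.6 and 27.4 CPM in WT and at 27.5, 31.8 and 27.0 CPM in BIT, with BIT replicate 2 above the others. Its fitted log2 fold change was 0.07 ± 0.10 (SE), -0.0025 without that mouse and 0.05 without WT replicate 3. Bak1 was at 63.6, 61.5 and 65.8 CPM in WT and at 65.9, 59.1 and 61.8 CPM in BIT, and its fitted log2 fold change was -0.09 ± 0.09 (SE), or -0.10 without WT replicate 3. Both genes encode the pore-forming proteins, and the WT and BIT mice overlapped for each.

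**Figure D2:**
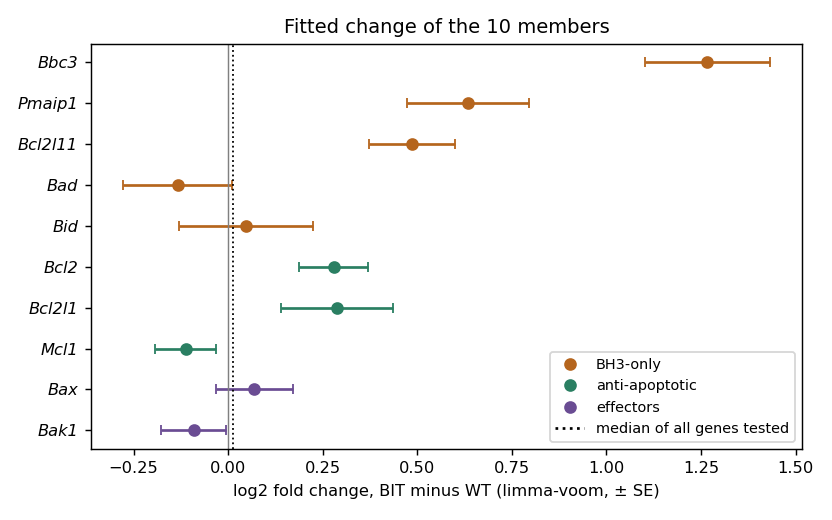
Fitted log2 fold change of BIT minus WT for each member, as a point with a bar of 1 standard error from limma-voom, coloured by class, with the median of all genes tested as a dotted line. Bbc3 is at 1.27, Pmaip1 and Bcl2l11 follow at 0.63 and 0.49, and the other 7 members lie between -0.13 and 0.29.

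By class, 4 of the 5 BH3-only genes were fitted above 0, with a median log2 fold change of 0.49 and a range from -0.13 to 1.27. Of the 3 anti-apoptotic genes 2 were above 0, with a median of 0.28 and a range from -0.11 to 0.29. The 2 effectors were at -0.09 and 0.07. Over the 10 members the median was 0.17 and 7 were above 0, while over all 16105 genes tested the median was 0.0118 and 52.3% were above 0. CPM values of BIT mice were all above those of WT mice for 3 of the 10 members (Bbc3, Bcl2l11 and Bcl2), where 6.09% of all genes tested did so, and all below for 0 members, where 6.69% of all genes did so. On the normalized scale Pmaip1 joined these members, and 7.38% of all genes did so. At a Benjamini-Hochberg adjusted p below 0.05 in limma-voom, 1 of the 10 members was called, Bbc3 in the direction of BIT, where 0.137% of all genes were called in either direction and 0.0807% with BIT higher. Nothing is read from these member counts, since the same comparison led to the choice of the genes. The call of Bbc3 was absent when any mouse other than WT replicate 3 was left out, and from edgeR's quasi-likelihood test with all 6 mice.

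To compare the classes on a scale that allows sums over genes, CPM was divided by the length of each gene's annotated exons in kilobases. The 5 BH3-only genes together were at 14.9, 12.8 and 14.5 CPM per kb in the WT mice and at 20.8, 22.9 and 24.7 CPM per kb in the BIT mice. The 3 anti-apoptotic genes were at 137.9, 128.8 and 151.6 in WT and at 138.7, 140.3 and 144.8 in BIT. The effectors were at 40.5, 40.4 and 42.1 in WT and at 42.2, 41.7 and 40.2 in BIT. The BH3-only sum was thus the class sum without overlap between the groups, and it includes Bbc3. With Bbc3 left out, it was 9.999, 8.87 and 11.4 in WT and 11.7, 12.8 and 14.9 in BIT, a smaller gap that rested mainly on Bcl2l11 and Pmaip1. The ratio of the full BH3-only sum to the anti-apoptotic sum was 0.108, 0.0994 and 0.0957 in WT and 0.150, 0.163 and 0.171 in BIT, whereas the ratio of effectors to anti-apoptotic genes was between 0.278 and 0.314 in both. The size of both ratios depended on the length used. With the longest transcript the first ratio was 0.158 to 0.186 in WT and 0.250 to 0.282 in BIT. With the canonical transcript it was 0.193 to 0.230 in WT and 0.287 to 0.325 in BIT. The effector ratio was 0.329 to 0.377 in WT and 0.326 to 0.360 in BIT with the longest transcript. With the canonical one it was 0.348 to 0.3995 in WT and 0.345 to 0.384 in BIT. Both lengths were tried for the ratios after seeing the data. For the first ratio the groups did not overlap with either length. All lengths weight the same counts, and the sum includes Bbc3, so this is not separate support. These ratios hold per length of RNA in the sorted cells and are not ratios of proteins. In such bulk samples fewer cells of a type and less RNA per cell cannot be told apart.

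**Figure D3:**
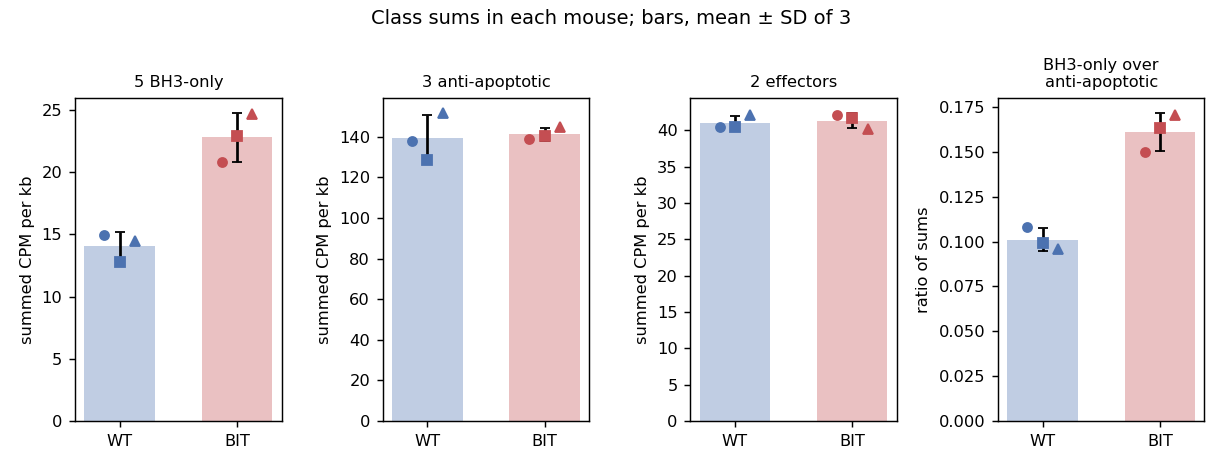
Summed CPM per kb of exon of each class, and the ratio of the BH3-only to the anti-apoptotic sum, for each mouse as a point, with bars at the mean and error bars of 1 SD (n = 3) and axes from 0. The BH3-only sum is at 12.8 to 14.9 in WT and 20.8 to 24.7 in BIT, while the sums of the other classes overlap.

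Within the BH3-only class, 2 genes made up most of the sum. Bbc3 made up 33.0%, 30.7% and 21.2% of the BH3-only sum in the WT mice and 43.6%, 43.9% and 39.5% in the BIT mice. Bcl2l11 made up 30.6% to 37.5% in WT and 28.8% to 32.0% in BIT. The level of Bcl2l11 was 1.01, 0.998 and 1.77 times that of Bbc3 in WT and 0.659, 0.676 and 0.810 times in BIT. Bbc3 was thus the higher of the pair in all BIT mice and the lower in 2 of the WT mice, by a small margin in WT replicate 1. In WT this ratio was 1.10 to 1.96 with the longest transcript and 1.12 to 1.99 with the canonical one. With these lengths Bbc3 was the lower in every WT mouse and still the higher in every BIT mouse. Within the anti-apoptotic class, Mcl1 was 5.24, 5.73 and 5.57 times Bcl2 in WT and 4.73, 4.32 and 3.61 times in BIT. With the longest or the canonical transcript, Mcl1 was 4.125 to 4.506 times Bcl2 in WT and 2.841 to 3.723 times in BIT. The ratio of Bak1 to Bax, 1.72 to 1.88 in WT and 1.44 to 1.85 in BIT, overlapped, and which of the pair was higher depended on the length, since with canonical transcripts the ratio was 0.913 to 0.994 in WT and 0.761 to 0.980 in BIT.

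Over all 6 mice, Mcl1 had the highest level per length of the members at 113.5 ± 6.32 CPM per kb (SD, n = 6), followed by Bak1 at 26.2 ± 1.10 and Bcl2 at 23.9 ± 4.02. Bax was at 15.03 ± 1.06, Bbc3 at 6.80 ± 3.17 and Bcl2l11 at 5.84 ± 1.40. The lower end was formed by Bcl2l1 at 3.01 ± 0.60, Pmaip1 at 2.89 ± 0.78, Bad at 1.495 ± 0.20 and Bid at 1.42 ± 0.18. The highest mean level was 80.1 times the lowest. Every BH3-only gene was below both effectors in mean level, and of the anti-apoptotic genes Bcl2l1 was among the low members.

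Neighbours in this order were compared within mice, with an exact two-sided sign-flip permutation test on the log2 differences of the 6 mice. The order was taken from the same values, with WT and BIT mice pooled, so the p-values are a description. Pairs with Bbc3 also carry its difference between the groups. In 5 of the 9 pairs the order was the same in 6 of 6 mice, namely Mcl1 over Bak1 (4.34-fold), Bcl2 over Bax (1.57-fold), Bax over Bbc3 (2.45-fold), Bcl2l11 over Bcl2l1 (1.93-fold) and Pmaip1 over Bad (1.88-fold). Each of these had p = 0.03125, the smallest that 6 mice allow in this exact test, and 0.05625 after Benjamini-Hochberg adjustment over the 9 pairs. None of the pairs passed an adjusted p of 0.05. With this smallest p, no pair could pass the adjustment on its own, however large its difference. The other 4 pairs differed by less than their spread between mice, with ratios of 1.11 for Bak1 over Bcl2, 1.08 for Bbc3 over Bcl2l11, 1.06 for Bcl2l1 over Pmaip1 and 1.05 for Bad over Bid. The first 3 of these held their order in 4 of 6 mice and the last in 2 of 6, and the exact p-values were between 0.25 and 0.75. The order by genotype differed at 4 pairs of neighbours. From WT to BIT, Bcl2 went from place 3 to 2 before Bak1, Bbc3 from 6 to 5 before Bcl2l11, Pmaip1 from 8 to 7 before Bcl2l1, and Bid from 10 to 9 before Bad. The ratio of Bax to Bbc3 was 3.73 in WT and 1.61 in BIT.

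The order depended on the length used, except at places 1, 5 and 6. With the longest annotated transcript in place of all exons, Bcl2 came before Bak1, and Pmaip1 came last after Bid and Bad. The highest mean level was then 39.3 times the lowest. With the canonical transcript, a choice added after seeing the data, Bid (6.30 CPM per kb) and Bad (5.64) came before Bcl2l1 (4.73) and Pmaip1 (2.89), and Bax (28.6) came before Bak1 (26.4), so that places 2 to 4 were Bcl2, Bax and Bak1. Bcl2 was then 0.846 to 1.40 times Bax in the 6 mice. Mcl1 kept the first place, and Bbc3 the fifth before Bcl2l11, with all 3 lengths.

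**Figure D4:**
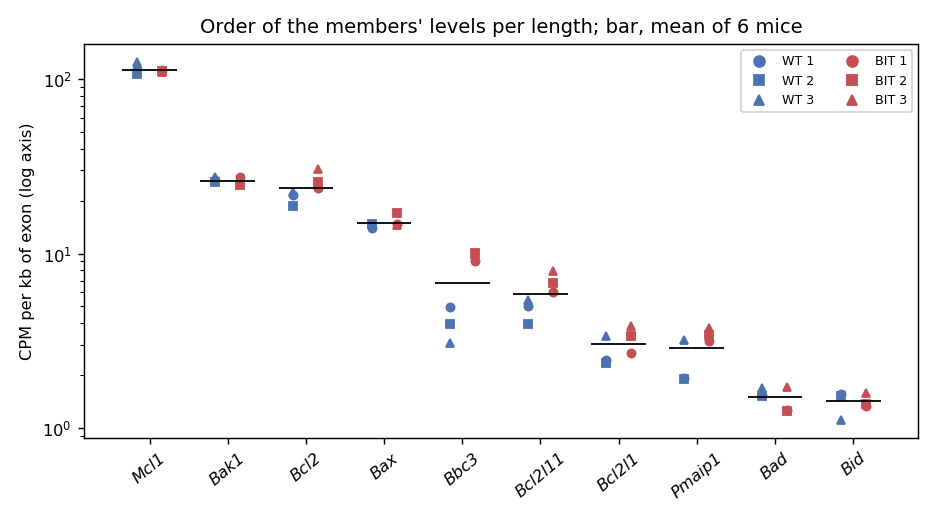
CPM per kb of annotated exon, on a log axis, of the 10 members in order of their mean over 6 mice (bar), with WT mice in blue and BIT mice in red. Mcl1 is at 113.5 and Bid at 1.42, and Bbc3 is the member whose WT and BIT points lie farthest apart.

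The members also differed in how far their counts can be assigned to them alone. The estimated counts of all 10 members were whole numbers in every library, as they are where no read is divided between genes. Bbc3, Pmaip1 and Mcl1 overlapped no other annotated gene. The span of Bad overlapped Gpr137 on the opposite strand, that of Bid overlapped Bcl2l13, a BCL2-like gene, on the opposite strand, and that of Bak1 overlapped Ggnbp1 on the opposite strand. On the same strand, the span of Bcl2l11 overlapped the protein-coding gene Gm74510 and that of Bax overlapped Gm45808, which strand alone cannot separate. The span of Bid also overlapped Gm44260 on the same strand, and that of Bcl2 overlapped Mir3473f and Gm37053. The paper names a stranded library kit, but the strand setting of the counting is not given in the sources used here. For genes with an overlap on the opposite strand, reads from the 2 strands may therefore not have been separated.

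The profile of Bbc3 over the libraries was compared with that of every other gene tested, as the root mean square distance of log2 CPM values centered on their own mean over 6 libraries. The nearest were Dmrta1, at 0.13 with a log2 fold change of 1.27, 9630013K17Rik at 0.149 with 1.02, and Lrig3 at 0.158 with 1.17. Their mean log2 CPM was 2.76, -0.87 and -0.41, so 9630013K17Rik and Lrig3 were at low levels. No other member was among these 3. The genes were selected for their likeness to a difference between the groups, so their fold changes are a description.

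The wider machinery of apoptosis was compared between the groups as 8 further lists, of which 48 genes had enough counts. None of the 48 had an adjusted p below 0.05 over all genes tested in limma-voom. Without adjustment, 8 of them had a p below 0.05, where 8.57% of all genes tested were below it, and DESeq2 and edgeR called 0 of the genes as well. Of the 48, 28 were fitted above 0 with a median log2 fold change of 0.04. The CPM values of BIT mice were all higher for 7 genes and all lower for 6, beside 6.09% and 6.69% of all genes tested. Fold changes of these lists are from all 6 mice unless a subset is named, and some depended on WT replicate 3. Examples without that library were 0.01 for Bmf, -0.34 for Bnip3, -0.18 for Birc5 and 0.63 for Fasl. With it left out, 0 genes of the lists were called.

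Other BH3-domain genes had 4 of 5 genes tested, of which 2 were fitted above 0. Bmf, which senses detachment and loss of survival signals, was fitted at 0.35 ± 0.34 (SE, adjusted p = 0.797), Bik at 1.26 ± 0.97 (adjusted p = 0.742) on 2 to 18 counts per library, and the mitophagy receptor gene Bnip3 at -0.06 ± 0.28 (adjusted p = 0.965). Hrk, a BH3-only gene of neurons, had 0 counts in all 6 libraries. Of the other anti-apoptotic genes 4 of 5 were tested and 1 was fitted above 0. Bcl2a1b, which encodes the induced guardian A1, was at 8.65, 12.1 and 9.24 CPM in WT and at 7.97, 5.84 and 6.47 CPM in BIT, without overlap, but its log2 fold change of -0.54 ± 0.22 (SE) had an adjusted p of 0.559. Bcl2a1a was fitted at -2.03 ± 0.83 on at most 18.8 counts (adjusted p = 0.559). The Bcl2a1 genes are near-identical and share reads, so the values of single copies are uncertain. Bcl2l2, which encodes BCL-W, was at 0.35 ± 0.36 (adjusted p = 0.804). Of the other BCL2-like genes, Bcl2l14, Bcl2l13 and Bcl2l12 were tested, with -0.81 ± 0.52, 0.05 ± 0.09 and 0.01 ± 0.17 (adjusted p from 0.699 to 0.989), and Bok had 0 counts in every library.

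Downstream of mitochondria, all 8 genes of the apoptosome and caspases were tested, and 4 were fitted above 0. Casp9, which encodes the initiator caspase of the apoptosome, was at 0.28 ± 0.13 (SE, adjusted p = 0.630). Of the 7 caspase inhibitors and their antagonists 3 were fitted above 0, with Birc5 at -0.49 ± 0.37, Birc3 at -0.23 ± 0.08 and Htra2 at 0.14 ± 0.13, and the lowest adjusted p of the list was 0.532, for Birc3. Of the 7 death receptor genes 6 were fitted above 0, none by more than the 0.21 ± 0.13 of the adaptor gene Tradd, followed by Fasl at 0.20 ± 0.39 and Tnfrsf10b at 0.20 ± 0.17, and the lowest adjusted p was 0.687.

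Factors known to drive BH3-only genes were taken as a list of 9, of which 8 were tested and 4 were fitted above 0. Trp53, which encodes p53, the best known activator of Bbc3 and Pmaip1, is named here for that role and not for its size of change. It was at 165.6, 144.2 and 130.3 CPM in WT and at 157.2, 133.5 and 148.8 CPM in BIT, with a log2 fold change of -0.06 ± 0.12 (SE, adjusted p = 0.907). Foxo3, named for the same reason as an activator of Bbc3 and Bcl2l11, was at 0.18 ± 0.10 (adjusted p = 0.653). Jun, an immediate early gene, differed most, at 115.1, 129.8 and 301.6 CPM in WT and 29.5, 13.3 and 242.6 CPM in BIT. Replicate 3 was high in both groups, and the log2 fold change of -1.93 ± 0.84 had an adjusted p of 0.575. In replicates 1 and 2 alone it was -2.66 with an adjusted p of 0.0112 in limma-voom, a comparison added after seeing the data. E2f1 was at 0.41 ± 0.21 (adjusted p = 0.640) and Ddit3, the stress factor CHOP, at -0.25 ± 0.24 (adjusted p = 0.797). The CPM values of BIT mice were all above those of WT mice for 1 of the 8 and all below for 2. These shares stand beside 6.09% and 6.69% of all genes tested. The 1 above was Nr3c1, named after its values were seen, at 0.20 ± 0.08 (adjusted p = 0.553).

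Of 9 p53 targets outside the family 7 were tested, and 6 of these were fitted above 0 with a median of 0.16. Phlda3 was at 0.69 ± 0.30 (SE, adjusted p = 0.575) on 30 to 47 counts per library, and Zmat3 at 0.28 ± 0.16 (adjusted p = 0.667). Mdm2, the feedback inhibitor of p53, was at 54.7, 55.7 and 56.1 CPM in WT and at 47.5, 50.6 and 52.1 CPM in BIT, and its fitted log2 difference of -0.20 ± 0.08 had an adjusted p of 0.554. Mdm2 was the 1 target tested that was fitted below 0. It was also the 1 of the 7 with the CPM values of all BIT mice below those of all WT mice, where 6.69% of all genes tested did so. The CPM values of BIT mice were all above those of WT mice for 3 of the 7, Ccng1, Trp53inp1 and Aen, named after their values were seen, against the 6.09% of all genes given above. Their log2 fold changes were 0.09 ± 0.10, 0.16 ± 0.08 and 0.18 ± 0.09 (adjusted p of 0.832, 0.630 and 0.630). None of the 7 passed the test.

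**Figure D5:**
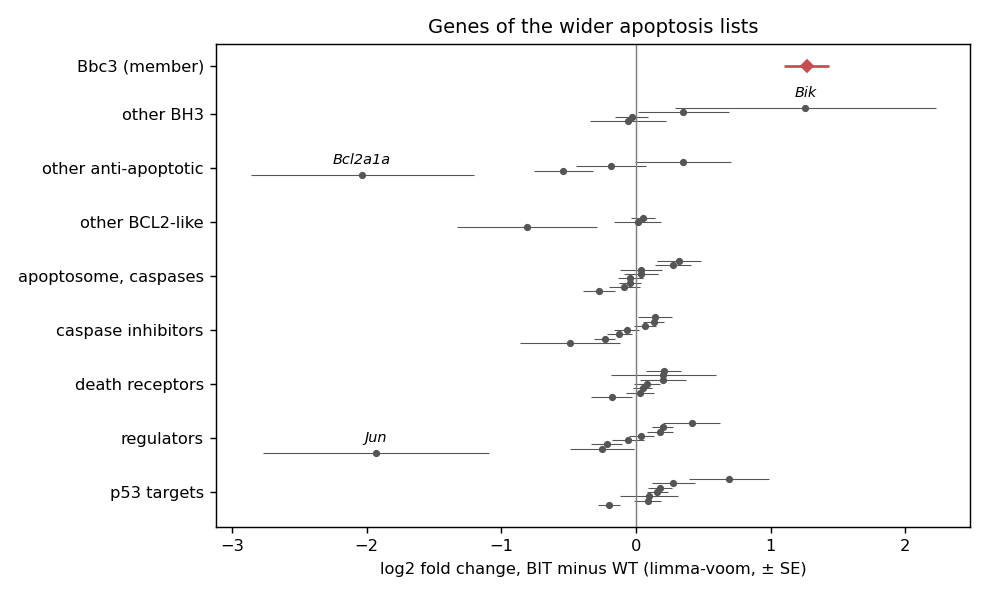
Log2 fold change of BIT minus WT with 1 standard error (limma-voom) for the 48 genes tested in 8 lists of apoptosis genes, with Bbc3 as a red diamond at 1.27 for comparison. Bik, Bcl2a1a and Jun, labelled, lie beyond 1 in either direction with standard errors of 0.83 to 0.97, and none of the 48 genes passed an adjusted p of 0.05.

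Markers of other cells that the sort could have let through were summed in the same libraries. The 5 B cell markers were at 28.5 to 37.3 CPM in WT and 22.9 to 30.1 CPM in BIT. The 5 myeloid markers were at 11.6 to 19.0 CPM in WT and 8.22 to 12.1 CPM in BIT. The 3 γδ T cell markers found in the table summed to 7.06 to 8.31 CPM in WT and 8.76 to 11.3 CPM in BIT, without overlap. This came through Scart1, at 2.16 to 3.98 CPM in WT and 4.18 to 7.13 CPM in BIT. Trdc, in contrast, overlapped, at 4.33 to 5.03 CPM in WT and 3.57 to 4.80 CPM in BIT. Sox13 was at or under 0.0475 CPM. Erythroid markers reached 35.1 CPM in BIT replicate 2 and at most 10.7 CPM elsewhere. The sum of the stromal and endothelial markers was at 94.3 to 122.0 CPM in all libraries, nearly all from Pecam1, with Col1a2 at or under 0.0751 CPM. The part of these cells in the values of the members was not tested.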

How the data were processed

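The authors deposited estimated counts per gene, made with RSEM 1.3.1 after cutadapt 1.18 and STAR 2.7.0f (versions from the submitters' processing notes), on GRCm39 with Gencode M38, from ribosomal RNA-depleted total RNA. They are not normalized, and 84.8% of those above 0 are whole. Counts were rounded and genes kept with filterByExpr of edgeR 4.0.16. The 2 groups were compared by limma 3.58.1 (voom, quantile normalization) in R 4.3.3, two-sided, with Benjamini-Hochberg adjustment over all genes tested. CPM is relative to the library total, so a shift of most genes would not be seen. Precision is limited by 3 mice per group. Gene positions, lengths and sequences are from Gencode M39. The members and lists were chosen with earlier results of these data known. Genes named beside the members were the 3 largest absolute changes per list, any that passed, and the 3 nearest profiles to Bbc3, and some genes that this rule names are not reported here. Alternatives were TMM, edgeR's quasi-likelihood test, DESeq2 1.42.0, other filters, quality weights, a replicate block, replicate 3 as batch, leaving out each mouse, other gene lengths and a pseudocount. The scripts were tested on simulated data.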

Additional observations from a re-analysis of the deposited data

How the results depend on the processing

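The 22 genes called among all genes tested became 14 with edgeR's quasi-likelihood test, 125 with DESeq2, 42 with replicate 3 as a batch, and 1 to 37 on leaving out each mouse in turn, with 1 without WT replicate 1, 2 without BIT replicate 2 and 37 without WT replicate 3. In replicates 1 and 2 alone, added after seeing the data, there were 71. Of the members, 1 was called at first, 0 with edgeR, 2 with DESeq2 (Bbc3 and Bcl2l11) and 0 to 1 on leaving out a mouse, where Bbc3 was called without WT replicate 3 and not without any other mouse. In the wider lists 0 genes were called under each of the alternatives set at the start and 1, Jun, in replicates 1 and 2 alone. The sign of the fold change was the same under all 15 alternatives for 8 members, and turned under 3 for Bid (quality weights, without WT replicate 3, replicates 1 and 2 alone) and under 1 for Bax (without BIT replicate 2). The log2 fold change of Bbc3 was between 1.15 and 1.28 under the alternatives that kept all 6 mice, and 1.09 in replicates 1 and 2 alone. With the replicate block 21 genes were called, and Bbc3 was the member among them. Deviations of same-numbered mice correlated at 0.139, 0.0255 and 0.332, so the numbers were not taken as pairs. No pair of neighbouring levels passed under any length, scale or pseudocount, where with 6 mice no pair could pass on its own. The sign-flip test was not run with a mouse left out, since its smallest p is then 0.0625. With 8 or 9 of the 9 neighbouring pairs the order was kept on leaving out each mouse. The causes of these changes were not tested.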
